A study of Mus musculus with 3 samples.

Results

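The genes described here are 45 genes whose transcripts accumulate when cells copy their DNA and divide, out of 32285 genes listed in the count matrices. They were taken as a fixed list of symbols, of which 26 belong to the G2 phase and mitosis (G2/M) and 16 to the DNA synthesis phase (S). The other 3 (Stmn1, Hmgb2 and Hist1h2ap) are raised in cycling cells and were listed in neither group. All 45 symbols were found. A cell was called dividing when it held at least 1 transcript of Mki67 and at least 1 of Top2a, so the levels of these 2 genes in dividing cells only describe that rule. By this rule 757 of 16850 cells used were dividing.

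Immune cells of mouse aortas had been captured in droplets and their RNA sequenced cell by cell, as 3 libraries with 1 for each group. All mice, the controls included, were labelled ApoE-/- (C57BL/6J), a genotype that raises plasma cholesterol; the Apoe transcript goes against this label in 1 library, as given below. The Ctrl library came from mice labelled control, the HHcy library from mice that drank homocysteine at 1.8 g/L for 4 weeks, and the WD library from mice fed western diet for 4 weeks. Live nucleated cells positive for CD45, the surface protein of blood-derived cells, were sorted from whole aortas with their adventitia, and this gate sets which cells can be counted at all. The labels state neither the age and sex of the mice nor how many were pooled in a library. With 1 library a group there is no test between groups, and every interval given covers counting error only, at 95%.

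A cell that enters the cycle first loads the Mcm2 to Mcm7 helicase onto its DNA, and then copies the DNA in S phase with the sliding clamp Pcna and a supply of nucleotides from enzymes such as Rrm1, Rrm2 and Tyms. Genes of this first wave are switched on by E2F transcription factors. A later wave, read from promoters that carry a cell cycle homology region (CHR) and CCAAT boxes, supplies cyclins A and B, Cdk1, and the kinases, kinesins and centromere proteins that build the spindle and separate the chromosomes. In atherosclerotic aortas, local division of macrophages is a known source of plaque macrophages, and B cells, T cells and dendritic cells can divide as well.

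The upstream sequences of some members are shown first, because the windows of the S and the G2/M genes differ in these motifs. RefSeq windows (build GRCm38.p6) of 300 bases, 250 before and 50 after the start site, matched 36 of the 45 members, 3 of them with 2 windows. The CHR (TTTGAA or TTCGAA), the CCAAT box (CCAAT) and an E2F site (TTTCCCGC, TTTCGCGC, TTTGCCGC or TTTGGCGC) were searched on both strands. The 150 bases before the start are printed for the members of each phase with the most UMIs among those given with values. They are Cenpa, Mki67, Top2a and Ube2c of G2/M, and Pcna, Mcm3 and Mcm6 of S. Mki67 and Top2a also define the dividing cells. Capitals mark matches of any of the motifs, so a CCAAT box on the other strand reads ATTGG, a CHR reads TTCAAA, and an E2F site GCGCGAAA.
Mki67 (chr7:135716380-135716529, minus strand): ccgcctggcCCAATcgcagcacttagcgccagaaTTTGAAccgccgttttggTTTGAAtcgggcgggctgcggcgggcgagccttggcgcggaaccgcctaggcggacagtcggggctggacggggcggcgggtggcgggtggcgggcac
Top2a (chr11:99024190-99024339, minus strand): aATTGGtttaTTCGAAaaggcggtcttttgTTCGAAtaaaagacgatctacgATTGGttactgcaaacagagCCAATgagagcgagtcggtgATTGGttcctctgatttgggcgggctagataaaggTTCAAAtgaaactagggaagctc
Ube2c (chr2:164769779-164769928, plus strand): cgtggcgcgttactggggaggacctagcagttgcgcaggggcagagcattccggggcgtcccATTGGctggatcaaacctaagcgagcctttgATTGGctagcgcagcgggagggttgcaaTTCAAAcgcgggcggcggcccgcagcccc
Cenpa (chr5:30666736-30666885, plus strand): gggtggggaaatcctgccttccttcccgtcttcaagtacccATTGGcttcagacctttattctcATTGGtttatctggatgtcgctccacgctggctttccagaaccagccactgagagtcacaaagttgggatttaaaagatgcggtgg
Pcna (chr2:132253181-132253330, minus strand): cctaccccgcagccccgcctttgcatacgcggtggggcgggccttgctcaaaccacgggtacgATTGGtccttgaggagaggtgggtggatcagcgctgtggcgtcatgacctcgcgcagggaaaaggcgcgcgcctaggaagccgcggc
Mcm3 (chr1:20820313-20820462, minus strand): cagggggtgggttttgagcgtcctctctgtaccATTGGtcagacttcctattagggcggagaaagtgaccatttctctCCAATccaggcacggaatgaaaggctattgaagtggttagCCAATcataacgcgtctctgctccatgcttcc
Mcm6 (chr1:128359706-128359855, minus strand): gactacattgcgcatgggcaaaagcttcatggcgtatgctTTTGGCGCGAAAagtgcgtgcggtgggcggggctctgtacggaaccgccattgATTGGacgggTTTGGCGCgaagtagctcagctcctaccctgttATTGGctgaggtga

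In these stretches Top2a held 3 CHR matches and 4 CCAAT matches, Mki67 held 2 and 1, and Ube2c 1 and 2. Cenpa, also a G2/M gene, held 2 CCAAT matches and no CHR in the stretch printed. Of the S genes, Mcm6 held 3 E2F matches, of which 2 overlap in the run TTTGGCGCGAAA, beside 2 CCAAT matches, while Mcm3 held 3 CCAAT matches and Pcna 1. Over the whole windows, a CHR stood in 19 of 23 G2/M windows (82.6%) and in 3 of 15 S windows (20%), against 19.2% of all 32851 windows. An E2F match was seen in 6 of 15 S windows (40.0%) and 1 of 23 G2/M windows (4.35%, that of Cdk1), against 2.26% of all windows. CCAAT boxes were common in both groups, with 91.3% of G2/M and 80% of S windows against 37.4% of all windows. Birc5, Ccnb1, Cenpe and Nusap1 were the G2/M genes whose window had no CHR match. Aurka, Bub1, Cdca3, Cdca8, Cenpa, Cenpf, Hmmr, Kif23 and Plk1 had a CHR match in the window, but none wholly before the start. The same held for 1 window of Prc1. A match describes these letters and shows no binding. Whether the motifs of a gene go with the share of its transcripts in dividing cells was not tested.

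**Figure D1:**
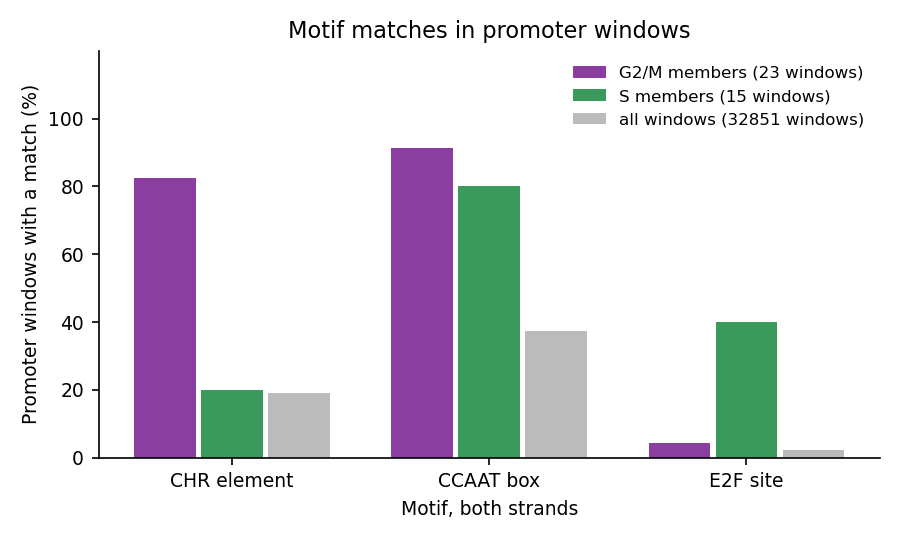
Share of 300-base promoter windows that hold at least 1 match of each motif, in percent, for 23 windows of G2/M genes, 15 windows of S genes and all 32851 windows. CHR matches stood in 82.6% of G2/M windows and 20% of S windows, and E2F matches in 4.35% and 40.0%.

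The libraries held 7512 (Ctrl), 9753 (HHcy) and 8557 (WD) cell barcodes with a median of 6664 to 7678 unique molecular identifiers (UMIs, counted transcripts) per barcode, and any pair of libraries shared 20 to 24 barcodes. After filters on genes and mitochondrial share and removal of barcodes with markers of 2 lineages, 5311, 6304 and 5235 cells were used. They still included 33, 103 and 167 fibroblasts and 11, 27 and 34 endothelial cells, which a CD45 gate should leave out. The targeted gene went against 1 label: Apoe reached 374 counts per 1000000 UMIs (CPM) in the library labelled HHcy, against 16.3 in Ctrl and 19.3 in WD, although all mice were labelled ApoE-/-. It is therefore called the library labelled HHcy, and every direction drawn from it carries that doubt. Dividing cells were deep, with a median of 17184 to 18484.5 UMIs against 6579 to 7763 in the other cells, and barcodes with markers of 2 lineages were as deep (16979 to 19857). That removal took 120 of 370 dividing barcodes in Ctrl (32.4%), 234 of 449 in the library labelled HHcy (52.1%) and 231 of 523 in WD (44.2%). Of all barcodes that passed the other filters it took 727 of 6038, 1851 of 8155 and 1475 of 6710, in the same order. Dividing barcodes were thus removed more often than barcodes in general in each library, and Ctrl lost the smallest share of both.

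Dividing cells made up 4.71% (4.15 to 5.31) of the Ctrl library, 3.41% (2.98 to 3.89) of the library labelled HHcy and 5.58% (4.97 to 6.23) of the WD library, from 250, 215 and 292 cells. With each cell thinned to 2000 UMIs the shares were 2.25% (1.86 to 2.70), 1.62% (1.32 to 1.975) and 2.06% (1.68 to 2.49). At equal depth the interval of each library thus overlapped those of the others, and WD was no longer above Ctrl. As a background, the cluster of mature neutrophils led by G0s2 and Cxcr2, cells that no longer divide, held 0 of 109 dividing cells in Ctrl, which allows a share of up to 2.75%, 1 of 326 in the library labelled HHcy and 1 of 213 in WD, at median depths of 3976, 4556 and 3604 UMIs. The background first planned was the whole neutrophil class, with shares of 11.1%, 2.75% and 5.10%. It was narrowed to this cluster after the data were seen.

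Most dividing cells belonged to 4 classes, named from marker genes: B cells, macrophages and monocytes, conventional dendritic cells (cDC) and T cells. Which class supplied them differed between the libraries. Macrophages and monocytes were 20.4% of the dividing cells of Ctrl, 10.2% of those of the library labelled HHcy and 45.2% of those of WD. B cells were 25.2%, 33.9% and 7.19%, cDC 23.2%, 18.1% and 16.1%, and T cells 8.80%, 13% and 7.53%. These shares depend on how many cells of each class the sort and the digestion delivered, so the share within each class was counted next.

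In the macrophage and monocyte class, 51 of 1964 cells were dividing in Ctrl (2.60%, 1.94 to 3.40), 22 of 1217 in the library labelled HHcy (1.81%, 1.14 to 2.72) and 132 of 2652 in WD (4.98%, 4.18 to 5.87). WD was highest, with an interval apart from the other 2. Median depth in this class was 7349, 8306 and 9076 UMIs, and after thinning the shares were 1.15% (0.715 to 1.76), 0.434% (0.141 to 1.01) and 1.60% (1.15 to 2.18), so that the Ctrl and WD intervals overlapped. With Mki67 alone as the rule they were 10.4%, 11.1% and 13.9%, and the library labelled HHcy was then above Ctrl. Among B cells 63 of 2110 (2.99%), 73 of 3599 (2.03%) and 21 of 1170 (1.80%) were dividing, and the interval of Ctrl (2.30 to 3.80) overlapped those of the library labelled HHcy (1.59 to 2.54) and of WD (1.11 to 2.73). Thinned B cells had 1.31%, 0.790% and 0.789%. Among thinned mature neutrophils 0 of 96 in Ctrl, 0 of 308 in the library labelled HHcy and 0 of 183 in WD were dividing. These counts allow shares of up to 3.12%, 0.974% and 1.64%, limits set by the number of neutrophils, and the thinned shares of B cells and macrophages lie under them in all 3 libraries.

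The shares in dendritic cells and T cells were higher than those in B cells and macrophages, and close to each other in the 3 libraries. In cDC they were 14.4% (11.1 to 18.3, 58 of 402 cells) in Ctrl, 16.2% (11.8 to 21.5, 39 of 241) in the library labelled HHcy and 14.3% (10.7 to 18.6, 47 of 328) in WD. In T cells they were 15.3% (9.83 to 22.2, 22 of 144), 13.8% (9.37 to 19.3, 28 of 203) and 14.9% (9.56 to 21.6, 22 of 148). All intervals overlapped within each of these classes. Thinned shares were 5.57%, 8.55% and 4.02% in cDC and 8.94%, 8.90% and 10.1% in T cells.

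**Figure D2:**
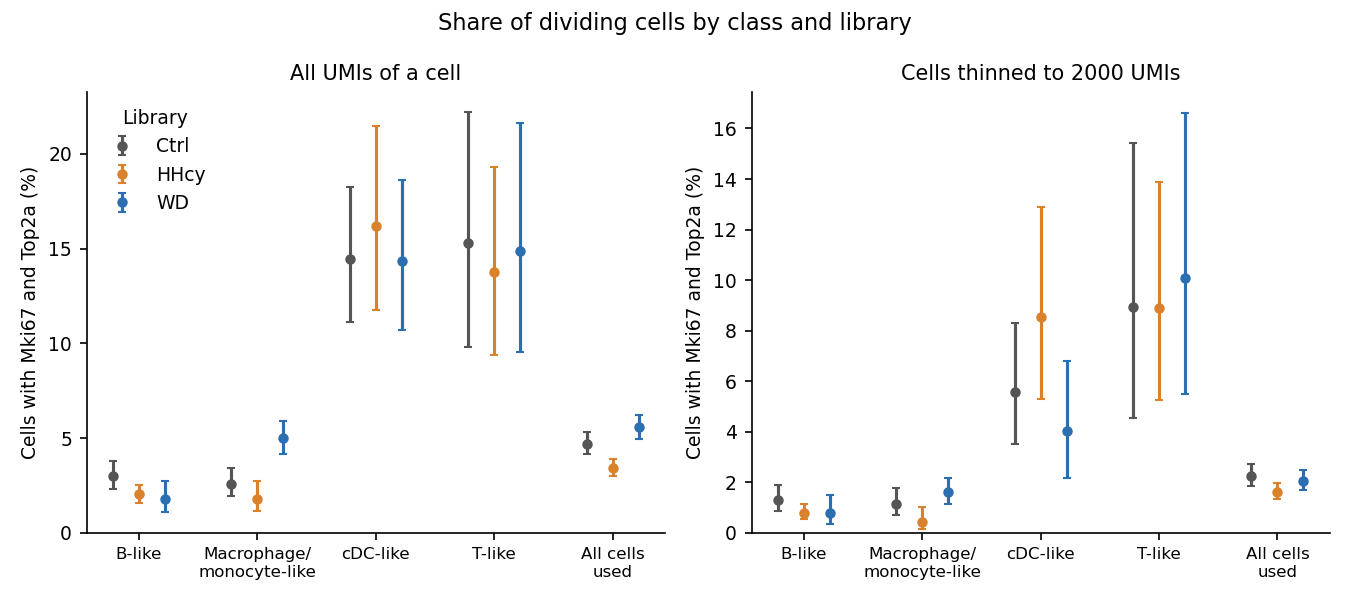
Share of cells that held Mki67 and Top2a, in percent, by class and library, from all UMIs (left) and after thinning each cell to 2000 UMIs (right); bars are exact 95% binomial intervals. In macrophages and monocytes the share from all UMIs was 4.98% in WD and 2.60% in Ctrl, and 1.60% and 1.15% after thinning.

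Smaller classes included the cells with the highest shares. Granulocyte precursors, the marrow-type cells that give rise to neutrophils, held 20 of 21, 7 of 9 and 21 of 22 dividing cells in Ctrl, the library labelled HHcy and WD. Immature neutrophils, a cluster led by the granule genes Camp, Ngp and Ltf, held 21 of 80, 10 of 74 and 12 of 42. Plasma cells held 4 of 14, 19 of 70 and 4 of 14, NK cells 1 of 22, 4 of 17 and 6 of 20, and type 2 innate lymphoid cells 2 of 32, 6 of 51 and 4 of 54. The sum of the 26 G2/M members in granulocyte precursors was 4449, 2938 and 4046 CPM, and in fibroblasts, of which 0 were dividing in every library, it was 30.8, 40.6 and 28.9 CPM.

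Within the classes, dividing cells were unevenly spread over the clusters, which were made without cell cycle genes. Among macrophages they were frequent in a cluster that includes cells led by Mmp12, Trem2 and Ms4a7, with 27 of 300 cells in Ctrl (9%, 6.02 to 12.8), 8 of 176 in the library labelled HHcy (4.55%, 1.98 to 8.76) and 93 of 813 in WD (11.4%, 9.33 to 13.8). Trem2 marks lipid-laden plaque macrophages, but the largest sub-cluster here, of 469 cells, was led by Ccl12, Ch25h and Ms4a7. The interval of Ctrl overlapped the other 2, while those of the library labelled HHcy and of WD did not overlap. The thinned shares were 5.19%, 1.74% and 4.39%. The cluster itself held 300 of 1964 macrophages in Ctrl and 813 of 2652 in WD. Its sub-cluster led by Stmn1, Prc1 and Pbk, without Mmp12 or Trem2 among its 10 leading genes, had 15 of 16, 5 of 5 and 56 of 59. It thus held 15 of the 27, 5 of the 8 and 56 of the 93 dividing cells above, although 99 cell cycle genes were kept out of the clustering. A cluster that includes cells led by Alox15, Prg4 and Cxcl13 had 7 of 115, 1 of 80 and 7 of 118. A cluster that includes cells led by Treml4 and cells led by Lyve1 had 3 of 53, 4 of 36 and 4 of 161, and 0 in each library after thinning. Dividing cells were few in another cluster, which includes cells led by Gpnmb, Fabp5 and Spp1, also genes of lipid-laden macrophages. It had 3 of 104, 0 of 31 and 5 of 252, and 0 in each library after thinning.

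Among B cells, 1 cluster held most dividing cells, with 47 of 59, 51 of 55 and 15 of 19. The other B cells lay in different clusters by library: a cluster that includes cells led by Sox5, Zcwpw1 and Zbtb32 held 919, 453 and 375, and a cluster that includes cells led by Satb1, Ighd and Fcer2a, genes of mature follicular B cells, held 337, 1724 and 195. Among cDC, the Xcr1 and Clec9a cluster had 35 of 170, 18 of 102 and 18 of 93. A cluster in which most cells were led by Cd209a had 20 of 147, 20 of 110 and 24 of 120. These cells include a sub-cluster of 12, 10 and 17 cells led by Hist1h2ap, Hist1h1b and Ube2c, without Cd209a among its 10 leading genes. The Fscn1 and Ccl22 cluster, with genes of migratory dendritic cells, had 3 of 85, 1 of 29 and 5 of 115. Dividing T cells included a cluster led by Dntt and Rag1, genes of developing lymphocytes (6 of 7, 8 of 15 and 5 of 7), and one led by the cytotoxic gene Gzmb (7 of 7, 14 of 14 and 12 of 13).

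The next question was how far each member's transcripts are confined to the dividing cells, which held 9.71%, 8.67% and 11.1% of all UMIs of the cells used in Ctrl, the library labelled HHcy and WD. For the 24 G2/M members that did not define these cells, the median share of a gene's UMIs that lay in dividing cells was 85.9%, 89.0% and 87.4%. For the 16 S members it was 54.5%, 52.0% and 51.0%. G2/M genes thus lay mostly in the dividing cells, and S genes about evenly inside and outside them. Mki67 and Top2a, which picked these cells, are themselves G2/M members. The gap between G2/M and S genes is therefore partly set by the rule and only describes the picked cells. Cdk1, the kinase that drives entry into mitosis, had 88.7%, 90.1% and 85.9%. At the low end, Cenpa, the histone H3 variant of centromeres, had 27.4%, 22.8% and 34.7%, and Pcna, the lowest S gene, 27.3%, 27.4% and 25.7%. Rrm2, the ribonucleotide reductase subunit made in S phase, was the highest S gene with 90.4%, 90.7% and 87.8%, while its partner Rrm1 had 45.5%, 47.6% and 53.0%. Hmgb2, a chromatin protein, had 51.6%, 45% and 49.9%. The tubulin-binding gene Stmn1 had 81.9%, 82.1% and 77.8%.

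**Figure D3:**
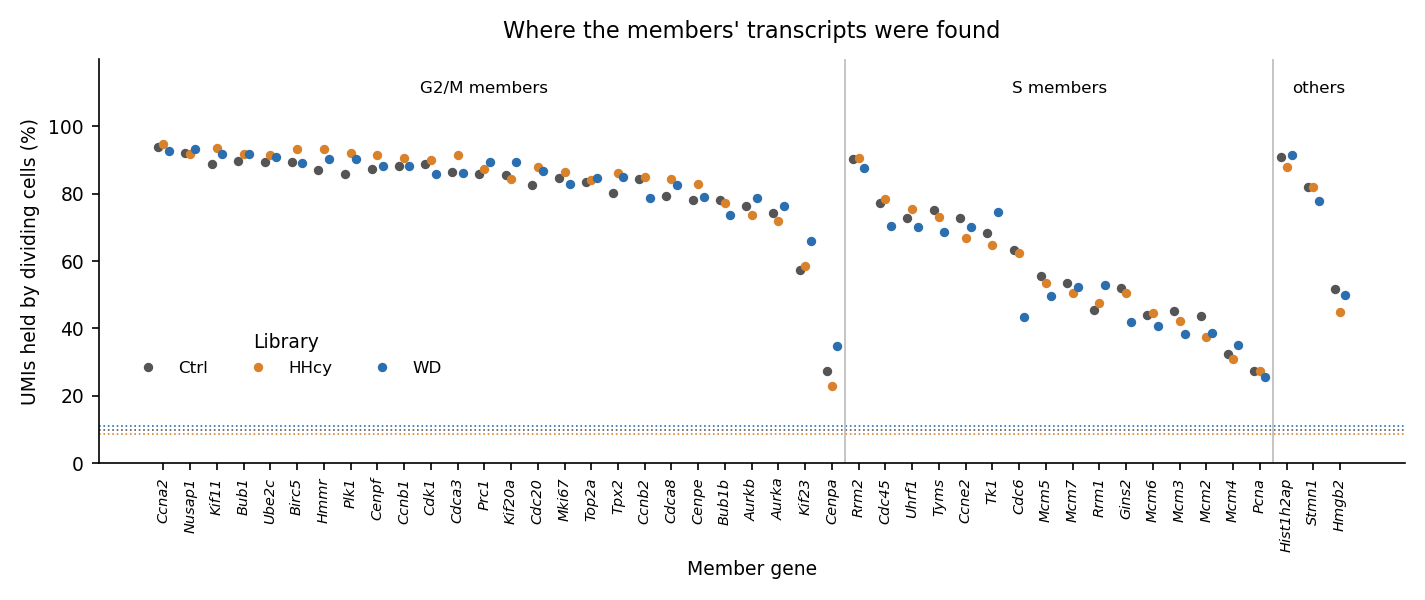
Percent of each gene's UMIs that lay in dividing cells, for the 45 genes in the 3 libraries; dotted lines give the share of all genes' UMIs in dividing cells (9.71%, 8.67% and 11.1%). G2/M genes sit near 85.9 to 89.0%, S genes near 51.0 to 54.5%, and Cenpa and Pcna stand at the low end of their groups.

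Counted per cell, a dividing cell held a median of 9 (Ctrl), 10 (library labelled HHcy) or 8 (WD) of the 16 S members and 15, 16 or 14 of the 24 G2/M members. Other cells held a median of 1 S member and 0 or 1 G2/M members. Outside the rule, 44, 44 and 67 cells held at least 8 S members, so the rule missed some cells rich in S transcripts, and 45, 49 and 67 dividing cells held under 5 of the G2/M members. Dividing macrophages carried fewer members than dividing B cells, with medians of 6, 4 and 11.5 against 16, 15 and 15 G2/M members. Of the 4 classes compared, T cells had the highest median of G2/M members in Ctrl and in the library labelled HHcy (19 and 19.5), and cDC in WD (17).

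The members were then compared between dividing cells and the other cells of the same class and library. This contrast is set by the rule that picked the cells and by their greater depth, so it describes them and supports nothing. All 43 members other than Mki67 and Top2a were at least 2-fold higher in CPM in each of the 3 libraries in B cells, macrophages and cDC. In T cells 42 were, and Cenpa was the exception at 1.47-fold (1.03 to 2.10) in WD. Among all genes tested, 8.33% in B cells, 5.06% in macrophages, 5.11% in cDC and 6.77% in T cells passed the same limit. The limit in the other direction, at least 2-fold lower in each library, was met by 0 members in each class, against 1.50%, 0.292%, 0.780% and 2.93% of all genes. The median fold of the S members was 7.78 (Ctrl), 10.8 (library labelled HHcy) and 7.77 (WD) in macrophages, and that of the G2/M members 39.0, 39.1 and 51.6. In B cells the medians were 17.2, 16.7 and 12.5 for S and 88.2, 107 and 82.5 for G2/M.

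By role, the median fold in macrophages was lowest for the licensing and replication fork genes, at 6.49, 8.47 and 5.35. Mcm3, a subunit of the helicase, was 5.73-fold (4.43 to 7.33), 4.82-fold (3.17 to 7.09) and 4.46-fold (3.83 to 5.18) higher. Mcm6, another subunit, was 3.31-fold, 9.04-fold and 4.64-fold higher. Pcna had a high level in cells outside the rule too, with 366 CPM in dividing against 166 in other macrophages of Ctrl, a fold of 2.21 (1.95 to 2.49), and folds of 2.71 and 2.22 in the library labelled HHcy and in WD. Nucleotide supply genes had median folds of 16.0, 20 and 19.2. Among them Rrm2 was 58.5-fold higher (35.0 to 101) in Ctrl, 52.7-fold in the library labelled HHcy and 47.3-fold in WD, Rrm1 7-fold, 9.68-fold and 9.90-fold, and Tyms, which makes thymidylate, 9.13-fold, 14.0-fold and 13.7-fold.

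The cyclin and Cdk1 group had median folds of 38.6, 58.3 and 40.8. Cdk1 stood at 106 CPM in dividing against 2.39 CPM in other macrophages of Ctrl (44.3-fold, 29.9 to 66.6), at 105 against 2.13 in the library labelled HHcy (49.2-fold, 28.4 to 86.5) and at 132 against 3.22 in WD (41.0-fold, 32.1 to 52.7). The 3 libraries gave overlapping intervals. Ccna2, cyclin A of S phase and G2, was 75.4-fold, 129-fold and 84.2-fold higher. Ccnb2, a B-type cyclin of mitosis, was 38.8-fold (26.6 to 57.3), 11.8-fold (5.93 to 22.2) and 26.2-fold (21.2 to 32.6) higher, and here the interval of the library labelled HHcy lay below that of Ctrl. Genes around the anaphase-promoting complex, the ligase that ends mitosis, had median folds of 39.5, 58.0 and 50.7. Ube2c, its ubiquitin-conjugating partner, was 62.8-fold, 27.9-fold and 62.9-fold higher, Cdc20, its activator, 32.5-fold, 71.2-fold and 51.1-fold, and Cdca3, a trigger of mitotic entry, 39.8-fold, 58.6-fold and 50.2-fold.

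Mitotic kinases, checkpoint and passenger genes had median folds of 31.0, 37.0 and 33.8 in macrophages. Birc5 (survivin), Aurkb and Cdca8 belong to the chromosomal passenger complex, which corrects the attachment of chromosomes to the spindle. Birc5 was 47.3-fold, 66.5-fold and 61.8-fold higher, Aurkb 31.0-fold, 16.1-fold and 29.9-fold, and Cdca8 31.1-fold, 40.7-fold and 33.9-fold. The spindle genes had median folds of 47.1, 55.3 and 61.6, and within them Nusap1, which bundles microtubules, reached 113-fold (70.5 to 190), 67.5-fold and 142-fold, the motor Kif11 40.3-fold, 56.2-fold and 62.2-fold, and Kif23, a motor of cell cleavage, 10.0-fold, 12.6-fold and 18.3-fold. Centromere genes had 20.3, 15.7 and 28.9. Cenpf was 64.7-fold, 37.8-fold and 56.7-fold higher and the kinesin Cenpe 20.3-fold, 15.5-fold and 29.0-fold, while Cenpa was 6.50-fold, 4.23-fold and 7.46-fold higher, with 22.4 to 26.1 CPM in cells outside the rule.

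**Figure D4:**
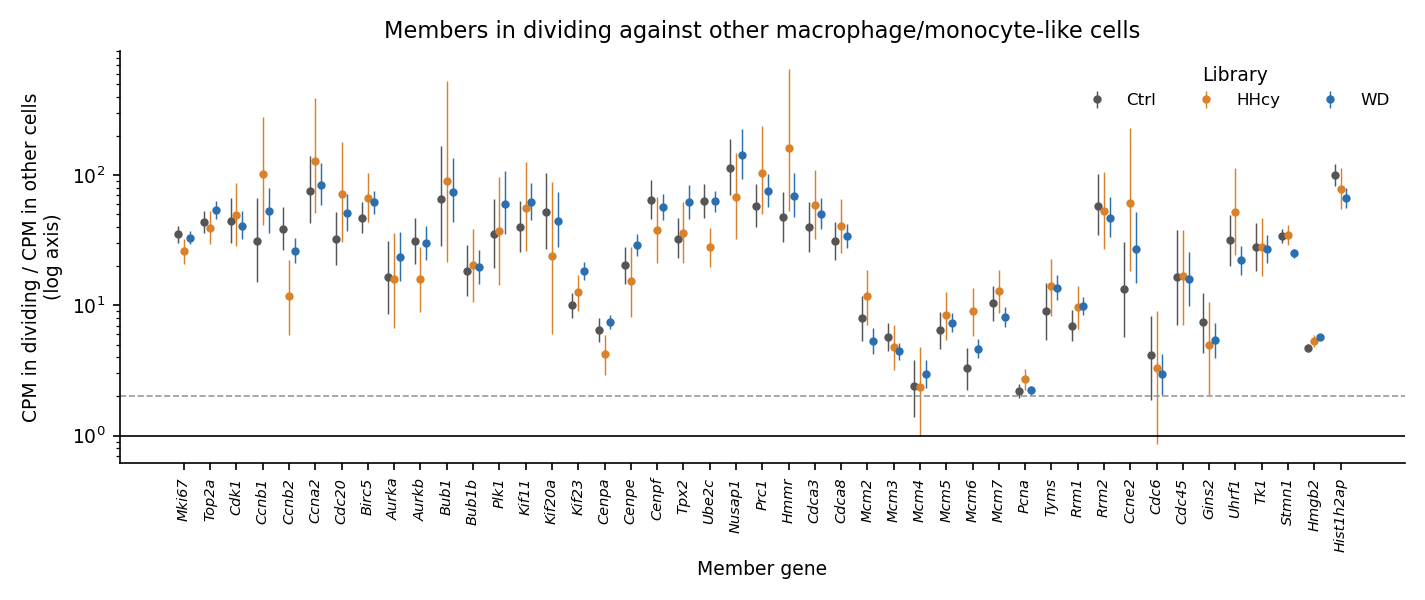
Level in dividing over other macrophages and monocytes, CPM divided by CPM, for each gene and library on a log axis; bars are exact 95% counting intervals and the dashed line marks 2-fold. All genes lie above 2-fold in the 3 libraries, from Pcna at 2.21 in Ctrl up to genes such as Nusap1 at 67.5 to 142.

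In B cells the same genes stood at the ends: Pcna at 4.95-fold, 4.88-fold and 4.42-fold and Cenpa at 2.73-fold, 2.38-fold and 3.31-fold were low, and Cdk1 at 214-fold (113 to 454), 135-fold and 145-fold and Birc5 at 227-fold, 189-fold and 136-fold were high. Cenpa stood at 93.5, 118 and 94.0 CPM in B cells outside the rule, the same gene that had the lowest share of UMIs in dividing cells. In dividing cDC, Rrm2 was 143-fold (54.8 to 531), 141-fold and 74.5-fold higher and Ube2c 31.3-fold, 88.8-fold and 115-fold. In T cells, Aurkb had 0 UMIs outside the dividing cells in every library, so its fold was at least 23.2 in Ctrl, 39.6 in the library labelled HHcy and 21.8 in WD, against a floor of 3 counts per library.

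The 3 members listed in neither the S nor the G2/M group behaved unlike each other in macrophages. Stmn1 was 34.0-fold (30.1 to 38.6), 34.8-fold and 25.1-fold higher in dividing cells. Hmgb2 was 4.72-fold, 5.32-fold and 5.67-fold higher from a base of 239 to 286 CPM in other cells. Hist1h2ap, a histone H2A gene, was 99.8-fold, 78.7-fold and 66.8-fold higher, but it has near-identical copies among which the counting could split reads, so its values are uncertain.

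Most other S and G2/M genes, from lists that hold no member, were also higher in dividing cells, and fewer of the G1 genes and inhibitors were. In macrophages 21 of 27 other S genes and 24 of 27 other G2/M genes were at least 2-fold higher in dividing cells of every library, and in B cells 24 of 27 and 26 of 27. In cDC these counts were 24 of 27 and 25 of 27, and in T cells 19 of 27 and 22 of 25. Among all genes 5.06% in macrophages, 8.33% in B cells, 5.11% in cDC and 6.77% in T cells passed this limit. Smc4, a condensin subunit, was 7.15-fold, 4.63-fold and 7.04-fold higher in dividing macrophages, Tubb4b, a tubulin, 4.44-fold, 5.00-fold and 6.43-fold, and the replication-linked ATPase Atad2 3.47-fold, 4.40-fold and 3.98-fold. Of the cyclins and kinases of the preceding G1 phase, 2 of 7 in macrophages, 4 of 7 in B cells, 3 of 7 in cDC and 2 of 6 in T cells passed the limit. The D-type cyclins were not among the high ones in macrophages: Ccnd1 was 1.73-fold, 1.16-fold and 1.97-fold higher, and Ccnd2 was at 0.773, 0.961 and 1.00 times the level in other cells. Of the inhibitors of cyclin-dependent kinases 1 of 7, 1 of 6, 1 of 6 and 0 of 5 passed. With so few inhibitors listed, these counts cannot be told from the share of all genes. Cdkn1b (p27), which holds cells in quiescence, stood in dividing macrophages at 0.470 (0.350 to 0.619), 0.864 (0.580 to 1.24) and 0.717 (0.606 to 0.844) times the level of other cells, and in dividing B cells at 0.581, 0.393 and 0.554 times.

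Among 13 transcription regulators of the cycle 6 passed in macrophages, 6 in B cells, 8 in cDC and 6 in T cells. The shares of all genes were 5.06%, 8.33%, 5.11% and 6.77% in the same order. Foxm1, which activates G2/M genes, was 72.8-fold (37.6 to 152), 30.4-fold (10.9 to 83.2) and 48.2-fold (29.5 to 82.5) higher in dividing macrophages and 31.6-fold, 40.4-fold and 32.5-fold in dividing B cells. Outside all lists, the 5 genes with the highest fold in the lowest of the 3 libraries of macrophages were Hist1h2af, Hist1h3c, Lrr1, Pimreg and Esco2. Esco2, which acetylates cohesin during replication, was 162-fold, 143-fold and 76.2-fold higher, and Hist1h3c, a histone H3 gene with near-identical copies, 159-fold, 202-fold and 104-fold. Hist1h2af had 18 UMIs in dividing and 0 in other macrophages of Ctrl, at least 125-fold higher, 52 and 1 in WD, and 3 and 0 in the library labelled HHcy, too few there for a fold, and Lrr1 and Pimreg had 1 to 13 UMIs in other cells of a library.

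Genes of cell identity also differed between dividing and other cells of the same class. Of 5 classical monocyte genes, 4 were lower in dividing macrophages of all 3 libraries, as were 1939 of all 13339 genes tested, and the size of the difference varied between the libraries. Plac8 stood at 0.263 (0.237 to 0.291), 0.796 (0.733 to 0.863) and 0.302 (0.284 to 0.322) times the level of other cells, Ly6c2 at 0.352, 0.945 and 0.368 times, and Chil3 at 0.302, 0.910 and 0.308 times. In Ctrl and WD the dividing cells thus carried fewer monocyte transcripts, and in the library labelled HHcy nearly as many as the others. Spp1, a gene of lipid-laden macrophages, was 1.63-fold higher in dividing macrophages of Ctrl and at 0.321 and 0.483 times in the library labelled HHcy and WD. In dividing B cells 5 of 6 germinal centre genes were at least 2-fold higher in each library, against 8.33% of all genes. S1pr2, which keeps B cells in germinal centres, was 20.3-fold (14.1 to 29.5), 97.7-fold (62.5 to 159) and 19.4-fold (7.09 to 51.4) higher. S100a6, raised in B1 cells, stood at 0.369, 0.468 and 0.0790 times. In dividing cDC all 4 MHC class II genes were lower in the 3 libraries, as were 1996 of all 11281 genes tested, with Cd74 at 0.786, 0.727 and 0.757 times and H2-Aa at 0.820, 0.790 and 0.803 times. The 12 cDC markers were lower too, with sums of 1457, 1233 and 1777 CPM in dividing against 3188, 2449 and 3340 in other cDC. The 18 macrophage and monocyte markers summed to 3616, 1742 and 3651 CPM in dividing against 2292, 2480 and 3887 in other cDC. The name of the dividing cDC is limited by this.

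The libraries were compared next, over all cells of a class. Both comparisons use the same Ctrl library. All 45 members had at least 20 UMIs in each of the 4 classes, ratios are on the log2 scale of CPM, and a gene counts as higher or lower past 2-fold. Over all cells used, the median log2 ratio was -0.06 in the library labelled HHcy and 0.09 in WD, and 0 members were past 2-fold in either, against 7.47% of all genes higher and 3.29% lower in the first and 9.86% and 2.79% in the second. A sum over a class cannot tell more dividing cells from more RNA of these genes in each.

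In macrophages and monocytes of the WD library the members were higher than in Ctrl, with a median log2 ratio of 0.67 against -0.01 for all 13339 genes tested, and 42 of 45 above 0. The G2/M members had a median of 0.84 and the S members 0.63. Past 2-fold were 8 higher members and 0 lower, against 2.37% and 1.85% of all genes. Mki67 stood at 42.8 CPM (39.7 to 46.0) in Ctrl, 30.9 (27.8 to 34.3) in the HHcy-labelled library and 62.8 (59.9 to 65.8) in WD, and Top2a at 28.3, 16.3 and 42.6 CPM. The 3 intervals of Mki67 do not overlap, but they pool UMIs over cells and leave out the spread between cells.

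By role, the genes around the anaphase-promoting complex had the highest median log2 ratio in WD macrophages, 1.22. Ube2c was 2.38-fold higher (2.07 to 2.75), from 14.3 to 34.1 CPM, Cdca3 2.33-fold and Cdc20 1.99-fold. Cyclins and Cdk1 followed with 1.02. Cdk1 was 2.04-fold higher (1.66 to 2.52), from 7.13 to 14.6 CPM, Ccnb2 2.03-fold (1.66 to 2.49) and Ccna2 2.43-fold (1.88 to 3.18). The other members past 2-fold, named for their values, were Ccnb1 at 3.35-fold (2.33 to 4.95) from 2.05 to 6.86 CPM, the checkpoint kinase Bub1 at 2.38-fold (1.61 to 3.59), and Tyms, at 2.42-fold (1.90 to 3.12). Centromere genes had a median of 0.91, nucleotide genes 0.88, spindle genes 0.64, replication fork genes 0.63, and mitotic kinase and passenger genes 0.58, among them Birc5 at 1.85-fold (1.61 to 2.14). Mcm3 was 1.31-fold and Mcm6 1.55-fold higher. The 3 members not above Ctrl were Kif23 at 0.983 (0.864 to 1.12), Pcna at 0.955 (0.912 to 1.00) and Hist1h2ap at 0.949 (0.862 to 1.05), and Hmgb2 stood at 1.01, whereas Stmn1 was 1.87-fold higher (1.75 to 2.01).

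Other readouts of the class moved with this result. The 6 genes of lipid-laden macrophages summed to 3879 CPM in Ctrl, 2297 in the library labelled HHcy and 4769 in WD, and the 5 classical monocyte genes to 2549, 3866 and 2030 CPM. Markers of B cells (9 genes) summed to 79.8, 97.4 and 55.7 CPM and those of T cells (10 genes) to 14.1, 17.3 and 16.2, with none at 0. Their part in the result was not tested. The median log2 ratio was 0.49 with 2-lineage barcodes kept and 0.55 with cells named one by one, and the count past 2-fold was then 1, while it was 3 with finer clusters and 15 after thinning. The median stayed above 0 under every alternative run; the cause of the changes was not tested. Among the other S genes 20 of 27 were above Ctrl (median 0.21), and among the other G2/M genes 22 of 27 (median 0.45). G1 cyclins and kinases had a median of -0.03, with 3 of 7 above Ctrl.

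In macrophages of the library labelled HHcy the members lay below Ctrl, with a median log2 ratio of -0.40 against -0.03 for all genes, and 36 of 45 below 0. This came with a split by phase, since the S members had a median of -0.02 and the G2/M members -0.69. Past 2-fold were 6 lower members and 0 higher, against 2.51% and 2.88% of all genes. Spindle genes had the lowest median, -1.32. Nusap1 stood at 7.89 CPM in Ctrl and 3.10 in the library labelled HHcy, 0.392 times (0.264 to 0.570), and Cenpf at 11.1 and 4.56 CPM, 0.413 times (0.298 to 0.562). The others past 2-fold were Hmmr at 0.322, Kif20a at 0.360, Prc1 at 0.397 and Hist1h2ap at 0.320 times. Against that, Cenpa was at 0.969 (0.841 to 1.11) and Mcm3 at 0.929 (0.787 to 1.09) times, and Tyms was 1.47-fold higher (1.07 to 2.02). Only 22 dividing macrophages stand behind these values, and the count past 2-fold ran from 3 to 15 over the alternatives, all with the same sign of the median; the cause was not tested.

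**Figure D5:**
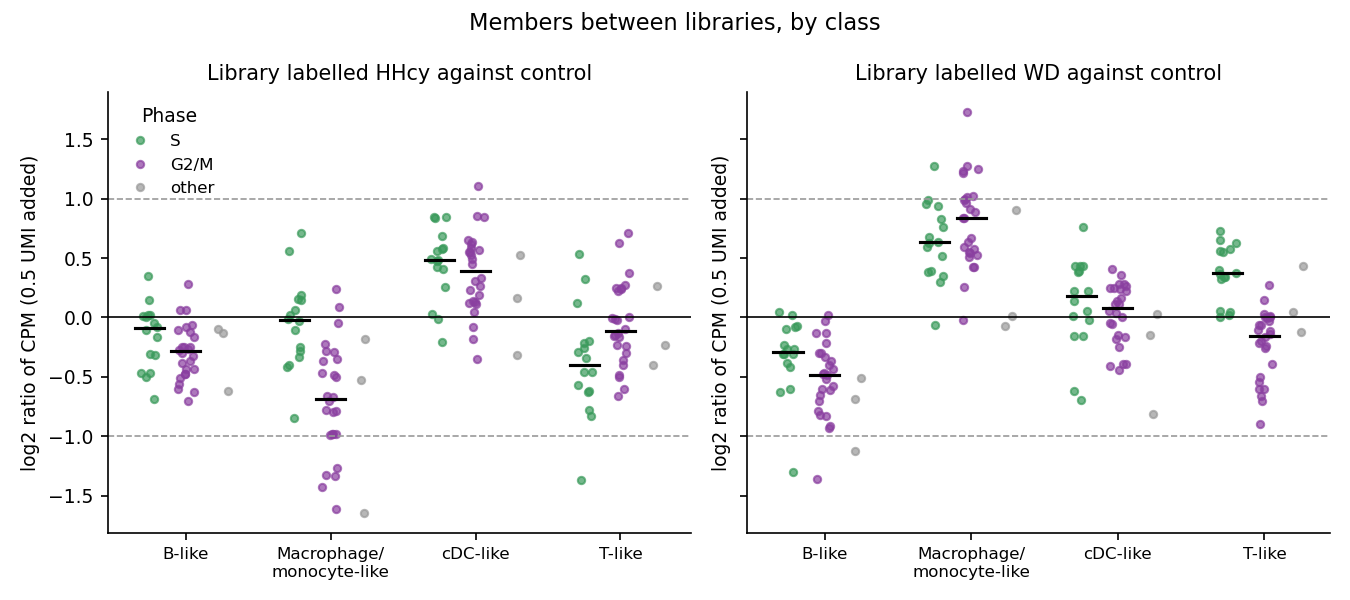
Log2 ratio of CPM of each gene in the library labelled HHcy (left) and in WD (right) over Ctrl, by class, coloured by phase; black bars are medians of the S and the G2/M genes and dashed lines mark 2-fold. In macrophages the G2/M median is -0.69 in the library labelled HHcy and 0.84 in WD.

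In B cells the members lay below Ctrl in both other libraries. The median log2 ratio was -0.42 in WD, with 42 of 45 below 0, and -0.25 in the library labelled HHcy, with 36 of 45 below 0, against 0.01 and -0.04 for all genes. Past 2-fold were 3 lower members in WD and 0 in the library labelled HHcy, against 2.04% and 3.86% of all genes, and 0 higher in either (2.54% and 2.27%). The 3 were Kif20a at 0.377 times (0.178 to 0.726), Ccne2, a cyclin of S phase entry, at 0.389 times (0.168 to 0.805), and Hist1h2ap at 0.459 times (0.417 to 0.505). Mki67 stood at 47.9, 39.6 and 31.5 CPM in Ctrl, the library labelled HHcy and WD, Hmgb2 at 444, 415 and 312, and Stmn1 at 75.8, 69.2 and 47.2, so WD was lowest in each. Cenpa stood at 105, 128 and 103 CPM, with WD at 0.980 times Ctrl (0.906 to 1.06), and Mcm6 at 30.3, 28.2 and 31.3, with WD highest. The germinal centre genes were below Ctrl in 6 of 6 cases in both libraries, with medians of -0.38 and -1.25, and their part was not tested. Different clusters held most of the class in the libraries, and whether this bears on the B cell difference was not tested. The size of that difference varied with the processing. With each library clustered on its own the HHcy-labelled library had a count of 30 and a median of -1.33, and WD had 25 and -1.42. With 2-lineage barcodes kept the count in WD was 16; the cause was not tested.

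In cDC of the library labelled HHcy the members lay above Ctrl, with a median of 0.47 against 0.06 for all genes and 39 of 45 above 0. Only Plk1, a mitotic kinase, passed 2-fold, at 2.16 times (1.41 to 3.34), against 2.91% of all genes higher and 2.99% lower. With cells named one by one the median was -0.13, so this direction depends on how the cells are named; the cause was not tested. In cDC of WD the median was 0.06, with 28 of 45 above 0 and 0 past 2-fold in either direction (2.23% and 2.15% of all genes). It was -0.13 with 2-lineage barcodes kept and -0.10 with cells named one by one, and 3 members were past 2-fold after thinning, so no direction holds there; the cause was not tested. Mki67 stood at 129, 139 and 98.0 CPM in cDC of Ctrl, the library labelled HHcy and WD.

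In T cells, where the class held 144 to 203 cells a library, the median was -0.21 in the library labelled HHcy against -0.12 for all genes, and 1 member, the replication licensing gene Cdc6, was past 2-fold lower at 0.386 times (0.187 to 0.783), against 6.01% of all genes lower and 2.65% higher. This median was 0.047 with a looser mitochondrial filter, 0.014 with finer clusters and 0.013 with cells named one by one. With each library clustered on its own it was -0.97, with 20 members past 2-fold, and after thinning 6 members were past 2-fold. The direction and the count thus depend on the processing; the cause was not tested. In T cells of WD the median was 0.00 with 0 members past 2-fold (3.94% and 4.26% of all genes). Here the phases parted: all 16 S members were above Ctrl, with a median of 0.37, and 20 of 26 G2/M members were below it, with a median of -0.15. Mki67 stood at 362, 324 and 307 CPM.

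Within dividing cells alone, the summed level of the 24 G2/M members in macrophages was 2483 CPM (2374 to 2596) in Ctrl, 1949 (1802 to 2104) in the HHcy-labelled library and 2965 (2898 to 3033) in WD. The order is that of the class as a whole. The intervals do not overlap, but they pool UMIs over 51, 22 and 132 cells and leave out the spread between cells. Of these cells 18, 11 and 42 held under 5 of the G2/M members. The 16 S members summed to 1144 CPM (1070 to 1221), 1345 (1224 to 1475) and 1302 (1258 to 1348), so S transcripts were lowest in Ctrl. In other macrophages the G2/M sum was 90.9, 83.0 and 85.1 CPM, and WD was not the highest there. In dividing B cells the G2/M sum was 3189, 3177 and 3644 CPM and the S sum 2297, 2254 and 2304. T cells had 4775, 5565 and 3507 CPM of G2/M and 2768, 2333 and 3184 CPM of S members, the same opposition of phases as over the whole class in WD.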

How the data were processed

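The 3 count matrices deposited by the authors give UMI counts for each gene and cell barcode, not normalized. Per the labels' protocols they come from Chromium 3' version 3 libraries. The file headers name Cell Ranger 4.0.0, whereas the submitters' processing notes name Cell Ranger 2.2.0 and the build mm10; the gene annotation is not given in the sources used here. Counting by the 3' end can split reads between near-identical copies. 0 columns of other samples were in the files.

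Barcodes with under 200 genes or over 10% mitochondrial counts were left out, as were those with markers of 2 or more lineages (at least 5 of 9 for B, 5 of 18 for T and NK, 9 of 30 for myeloid, 6 of 11 for neutrophil and 6 of 21 for stromal cells). These limits, set in place of Scrublet, the second level of clustering and the narrowing of the background to mature neutrophils were chosen after the data were examined. Clusters came from the Leiden algorithm in scanpy 1.11.5 (2000 variable genes without cell cycle genes, 30 principal components, 20 neighbours, resolution 1, then 0.5, seed 1) and were named from markers, so every class is a class of cells like the named type. Classes with at least 20 dividing cells in every library were compared. CPM are UMIs of a gene per 1000000 UMIs of the class, ratios add 0.5 UMIs, and genes needed 20 UMIs over the libraries. Intervals are exact: Clopper-Pearson for shares, Poisson for levels and conditional binomial for ratios (scipy 1.17.1, numpy 2.4.6, pandas 2.3.3, Python 3.11.15). They cover counting error only. A count of 0 was given a limit of 3 counts. The scripts were tested on simulated data.

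The members and lists were chosen with earlier results of these data known. Values are given for the 3 members of each role with the most UMIs (Mki67 and Top2a always), for genes among the 3 of each other list with the most UMIs in dividing cells, and for the 5 genes outside the lists with the highest lowest fold in dividing macrophages; others named were singled out by their values. There were 11 alternatives, plus leaving out each library in turn, which was added after the data were seen.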

Additional observations from a re-analysis of the deposited data

Results flagged for a closer look

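The median log2 ratio of the 45 genes between the library labelled HHcy and Ctrl had opposite signs in 2 classes. It was -0.40 in macrophages and monocytes and 0.47 in conventional dendritic cells. The dendritic cell value changes sign when cells are named one by one, and the library labelled HHcy goes against its label in Apoe. Between WD and Ctrl the median was -0.42 in B cells and 0.67 in macrophages and monocytes. Both signs held under every alternative run. With 1 library a group, neither difference between classes was tested.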

How the results depend on the processing

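No paired analysis was possible because each group has 1 library. The count of members at or past 2-fold in dividing over other cells changed least, and all 52 alternative values stayed within 1.5 times. Leaving out each library in turn left 43 to 43 members in B cells, 43 to 43 in macrophages, 43 to 43 in cDC and 42 to 43 in T cells. A count over all libraries can only stay or rise when a library is left out, so this step could not lower it. The rule that picked the cells also sets this contrast, so its stability supports nothing. Of the other values, 50 of 72 medians, 46 of 72 counts, 75 of 108 class shares and 18 of 27 library shares stayed close to those reported. The cause of the changes below was not tested. Triplets are in the order Ctrl, library labelled HHcy, WD. With Mki67 alone as the rule, the share of dividing cells was 10.6%, 7.87% and 12.5% of all cells, 6.16%, 3.89% and 4.53% of B cells, 10.4%, 11.1% and 13.9% of macrophages, 27.1%, 31.1% and 28.1% of cDC and 20.2% of T cells of the HHcy-labelled library. Thinned to 2000 UMIs, it was 2.25%, 1.62% and 2.06% of all cells, 1.31%, 0.790% and 0.790% of B cells, 1.15%, 0.434% and 1.60% of macrophages, 5.57%, 8.55% and 4.03% of cDC and, in the first 2 libraries, 8.94% and 8.90% of T cells. With 2-lineage barcodes kept, it was 6.13%, 5.51% and 7.79% of all cells, 3.69%, 3.49% and 6.22% of macrophages, 21.6% of cDC of the library labelled HHcy, and 19.6% and 23.2% of T cells of that library and of WD. With each library clustered on its own, it was 1.59%, 0.581% and 0.465% of B cells and 6.18% of T cells of the HHcy-labelled library. With cells named one by one, it was 3.75% of macrophages in Ctrl and 6.30% in WD.

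For the library labelled HHcy against Ctrl, the median log2 ratio changed sign in cDC with cells named one by one (-0.13), and in T cells with cells named one by one (0.013), at resolution 2 (0.014) and with up to 20% mitochondrial counts (0.047). In B cells it was -0.42 with 2-lineage barcodes kept, -0.39 thinned and -1.33 with libraries clustered separately. It was -0.72 in macrophages with up to 20% mitochondrial counts, and 0.66 in cDC and -0.97 in T cells with libraries clustered separately. For WD, the median in B cells was -0.79 with 2-lineage barcodes kept and -1.42 with libraries clustered separately, and in macrophages 0.49 with 2-lineage barcodes kept and 0.55 with cells named one by one. In cDC it was -0.13 and -0.10 under these 2 settings. In T cells it was 0.19 with up to 20% mitochondrial counts and at resolution 2, -0.19 with 2-lineage barcodes kept, 0.079 thinned, 0.11 with cells named one by one and 0.28 with libraries clustered separately.

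The number of members past 2-fold, for the library labelled HHcy and then WD, became with 2-lineage barcodes kept 1 and 16 in B cells, 1 in WD macrophages, 4 and 1 in cDC, and 0 in T cells of the first. Thinned, it was 1 and 8 in B cells, 15 and 15 in macrophages, 6 and 3 in cDC, and 6 and 4 in T cells. With cells named one by one, it was 1 in WD macrophages, 3 and 1 in cDC and 0 in T cells of the HHcy-labelled library. With libraries clustered separately, it was 30 and 25 in B cells and, for the library labelled HHcy, 3 in macrophages, 5 in cDC and 20 in T cells. It was 12 in macrophages of that library with up to 20% mitochondrial counts or with cell cycle genes allowed in the clustering, and 3 in WD macrophages at resolution 2.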
